A study of Mus musculus with 20 samples.

Results

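The genes described here are the interleukins and interleukin receptors, the signalling proteins by which immune cells, glia and neurons address each other. Every gene whose single symbol in the platform annotation begins with Il and a digit was taken, apart from 1 gene that the rule leaves out, and each gene was represented by its brightest probe set. The rule gave 72 of 18194 genes on the array: 32 ligands, 34 receptors, 4 soluble inhibitors (Il1rn, Il18bp, Il1f5 and Il22ra2), the secreted amino acid oxidase Il4i1 and the antisense transcript Il1bos. They were read by 113 probe sets, and 26 genes had more than 1. The choice used names and brightness and no difference between groups. Il1rl1, Il2rg and Il11ra1 were not analysed here, because no probe set carried those symbols alone.

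The arrays (Affymetrix) read RNA from dissected pieces rich in motor or sensory cortex of 10 female C57Bl6 mice, with 1 array per region and mouse. Of these, 6 had experimental autoimmune encephalomyelitis (EAE), a model of multiple sclerosis in which immunisation against a myelin protein leads to ascending paralysis, with average grades from 2.5 to 3.5 at days 18 to 21. At 8 to 12 weeks of age they had been given MOG35-55 peptide, 100 µg under the skin of the flanks with 50 µg into the base of the tail, with pertussis toxin, 400 ng each, on days 0 and 3. The other 4 were healthy mice of the same cages, for which no mock injection is described, so disease and immunisation cannot be told apart. Each of 2 cohorts held 3 EAE and 2 healthy mice, and all groups were perfused before dissection.

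Interleukins act in small families that share receptor chains. Members of the IL-1 family signal through a ligand-binding chain and the accessory protein encoded by Il1rap, with decoy receptors and antagonists as brakes. Cytokines of the IL-6 family use the common chain gp130, encoded by Il6st, and those of the IL-17 family share the chain encoded by Il17ra. In the brain, IL-34 is made largely by neurons and maintains microglia through the receptor Csf1r, and IL-33 is a nuclear alarm protein of oligodendrocytes and astrocytes. The IL-17 and IL-12/IL-23 axes are best known in EAE from the T cells that drive it.

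Values are log2 expression as deposited, with medians of 8.22 to 8.32 per array. The correlation between 2 arrays of the same group was 0.988 to 0.998. Markers of excitatory cortical neurons were high in all 4 groups, with list means of 12.54 to 12.99. The sensory array of EAE mouse 3 stood apart: its root mean square distance from its group's median was 0.333 over the 72 genes, against 0.114 to 0.174 for the other arrays of that group, and it was the farthest array for 39 of the 72. The sensory changes of Il17ra, Il17d, Il17rb, Il1r1, Il33, Il34, Il10rb and Il10ra and the share of positive members are therefore also given without that mouse, and other sensory values include it. Among healthy sensory arrays, that of mouse 1 was the farthest for 34 of the 72 genes, at a distance of 0.161 against 0.0977 to 0.121. It and the motor array of healthy mouse 4 were the 2 arrays of the second chip processing date, which the fits did not model. Both were healthy, so this date falls within the healthy groups only. In whole tissue, fewer cells of a type and less RNA per cell cannot be told apart. Only 9 of the 72 genes were brighter than the median gene of the array (9.26): the ligands Il18, Il33 and Il34 and the receptors Il10rb, Il17ra, Il17re, Il1rap, Il1rapl1 and Il6st. Brightness depends on the probes as well as on the RNA, so levels are compared within a gene only. No detection calls were used here, and background can compress the changes of the dim majority.

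Upstream sequence is shown for the genes that changed between EAE and healthy mice over both regions and had an entry among the RefSeq promoter sequences of build GRCm38.p6. These were 6 of the 9 such genes, with 8 start sites, and the 250 bases before each start are printed 5′ to 3′. Capitals mark matches, on either strand, to any of 5 motifs that are known for cytokine genes. These are TTCNNNGAA for STAT factors, AGAACA for the glucocorticoid receptor, TATAAA for the TATA box, and the consensus motifs of NF-kB and of the interferon response.
Il1b (chr2:129371140-129371389, minus strand): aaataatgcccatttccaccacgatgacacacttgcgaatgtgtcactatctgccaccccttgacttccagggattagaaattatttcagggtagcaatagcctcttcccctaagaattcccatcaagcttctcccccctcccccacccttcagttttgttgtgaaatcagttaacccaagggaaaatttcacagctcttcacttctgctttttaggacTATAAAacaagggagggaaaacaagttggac
Il1r1, start site 1 (chr1:40224830-40225079, plus strand): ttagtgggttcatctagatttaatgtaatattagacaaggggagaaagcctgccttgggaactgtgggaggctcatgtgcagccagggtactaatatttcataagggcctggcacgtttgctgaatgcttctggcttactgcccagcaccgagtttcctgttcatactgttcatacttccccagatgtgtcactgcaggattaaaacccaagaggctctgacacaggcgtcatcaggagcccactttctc
Il1r1, start site 2 (chr1:40266336-40266585, plus strand): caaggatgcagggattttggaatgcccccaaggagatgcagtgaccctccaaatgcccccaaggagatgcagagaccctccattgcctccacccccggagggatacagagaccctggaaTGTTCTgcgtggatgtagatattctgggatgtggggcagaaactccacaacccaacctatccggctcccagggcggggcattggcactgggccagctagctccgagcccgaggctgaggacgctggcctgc
Il1r2 (chr1:40085843-40086092, plus strand): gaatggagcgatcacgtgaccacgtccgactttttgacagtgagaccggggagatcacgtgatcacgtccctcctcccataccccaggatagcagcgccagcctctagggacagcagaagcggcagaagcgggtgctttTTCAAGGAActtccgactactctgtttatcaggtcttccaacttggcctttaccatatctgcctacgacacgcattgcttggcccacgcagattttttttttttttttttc
Il6ra (chr3:89913197-89913446, minus strand): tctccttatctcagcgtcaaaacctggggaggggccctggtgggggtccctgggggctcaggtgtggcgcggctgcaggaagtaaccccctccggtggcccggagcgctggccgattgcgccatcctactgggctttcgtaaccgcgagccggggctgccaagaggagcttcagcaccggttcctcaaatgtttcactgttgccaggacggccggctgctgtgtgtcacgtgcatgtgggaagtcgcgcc
Il33, start site 1 (chr19:29924863-29925112, plus strand): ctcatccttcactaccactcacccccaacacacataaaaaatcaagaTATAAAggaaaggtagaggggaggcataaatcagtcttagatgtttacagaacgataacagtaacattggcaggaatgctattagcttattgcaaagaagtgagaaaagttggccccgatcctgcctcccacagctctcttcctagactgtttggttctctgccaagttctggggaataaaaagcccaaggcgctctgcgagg
Il33, start site 2 (chr19:29945540-29945789, plus strand): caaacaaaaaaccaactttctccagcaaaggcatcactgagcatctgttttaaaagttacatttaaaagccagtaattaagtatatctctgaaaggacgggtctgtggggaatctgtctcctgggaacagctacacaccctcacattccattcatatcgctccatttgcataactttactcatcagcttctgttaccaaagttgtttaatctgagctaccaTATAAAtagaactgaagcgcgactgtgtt
Il6st (chr13:112463820-112464069, plus strand): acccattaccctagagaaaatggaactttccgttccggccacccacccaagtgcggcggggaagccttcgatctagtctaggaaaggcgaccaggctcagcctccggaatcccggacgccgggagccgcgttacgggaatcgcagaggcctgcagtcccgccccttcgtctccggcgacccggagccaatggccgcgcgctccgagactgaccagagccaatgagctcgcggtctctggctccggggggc

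Among these 8 windows, TTCNNNGAA occurred in 1, that of Il1r2, at position -111 from the start, and in 7.02% of 32851 promoters of this length. AGAACA occurred in 1, on the minus strand at the second Il1r1 start site, where the plus strand reads TGTTCT, and in 16.1% of all promoters. TATAAA occurred in 3, those of Il1b and of both Il33 start sites, and in 12.4% of all. It began at position -31 from the Il1b start and -29 from the second Il33 start, but at -203 from the first Il33 start. The NF-kB and interferon response motifs occurred in 0 of the 8 windows and in 0.356% and 2.98% of all promoters. A match describes the letters of the window and is no evidence of binding.

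The first question was which interleukin genes EAE changed. In motor cortex 1 rose and 3 fell at a limma adjusted p under 0.05, 5.56% of the 72 against 2.25% of all genes (0.517% higher and 1.74% lower). Il1r1, the signalling receptor of IL-1, was higher, and Il17ra, Il33 and Il10rb were lower. In sensory cortex 0 rose and 2 fell, Il17ra and Il34, which is 2.78% of the 72 against 2.41% of all genes (0.901% higher and 1.51% lower). With the 2 arrays of each mouse averaged, 4 rose and 5 fell, 12.5% against 7.87% of all genes (2.23% higher and 5.64% lower). Il1r1, the decoy receptor Il1r2, the cytokine Il1b and the receptor Il6ra rose, and Il17ra, Il33, Il34, Il10rb and Il6st fell. At an unadjusted p under 0.05 the members numbered 16 in motor cortex (22.2% against 15.9% of all genes), 13 in sensory cortex (18.1% against 18.5%) and 28 over both regions (38.9% against 25.9%). Without EAE mouse 3, Il17ra, Il1r1, Il34, Il1r2 and Il6st were still called over both regions, and Il33, Il10rb, Il1b and Il6ra were not, while Il17d was then called lower. The changes were small: the largest, in motor cortex, was that of Il33 at -0.58 on the log2 scale, a ratio of 0.669.

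**Figure D1:**
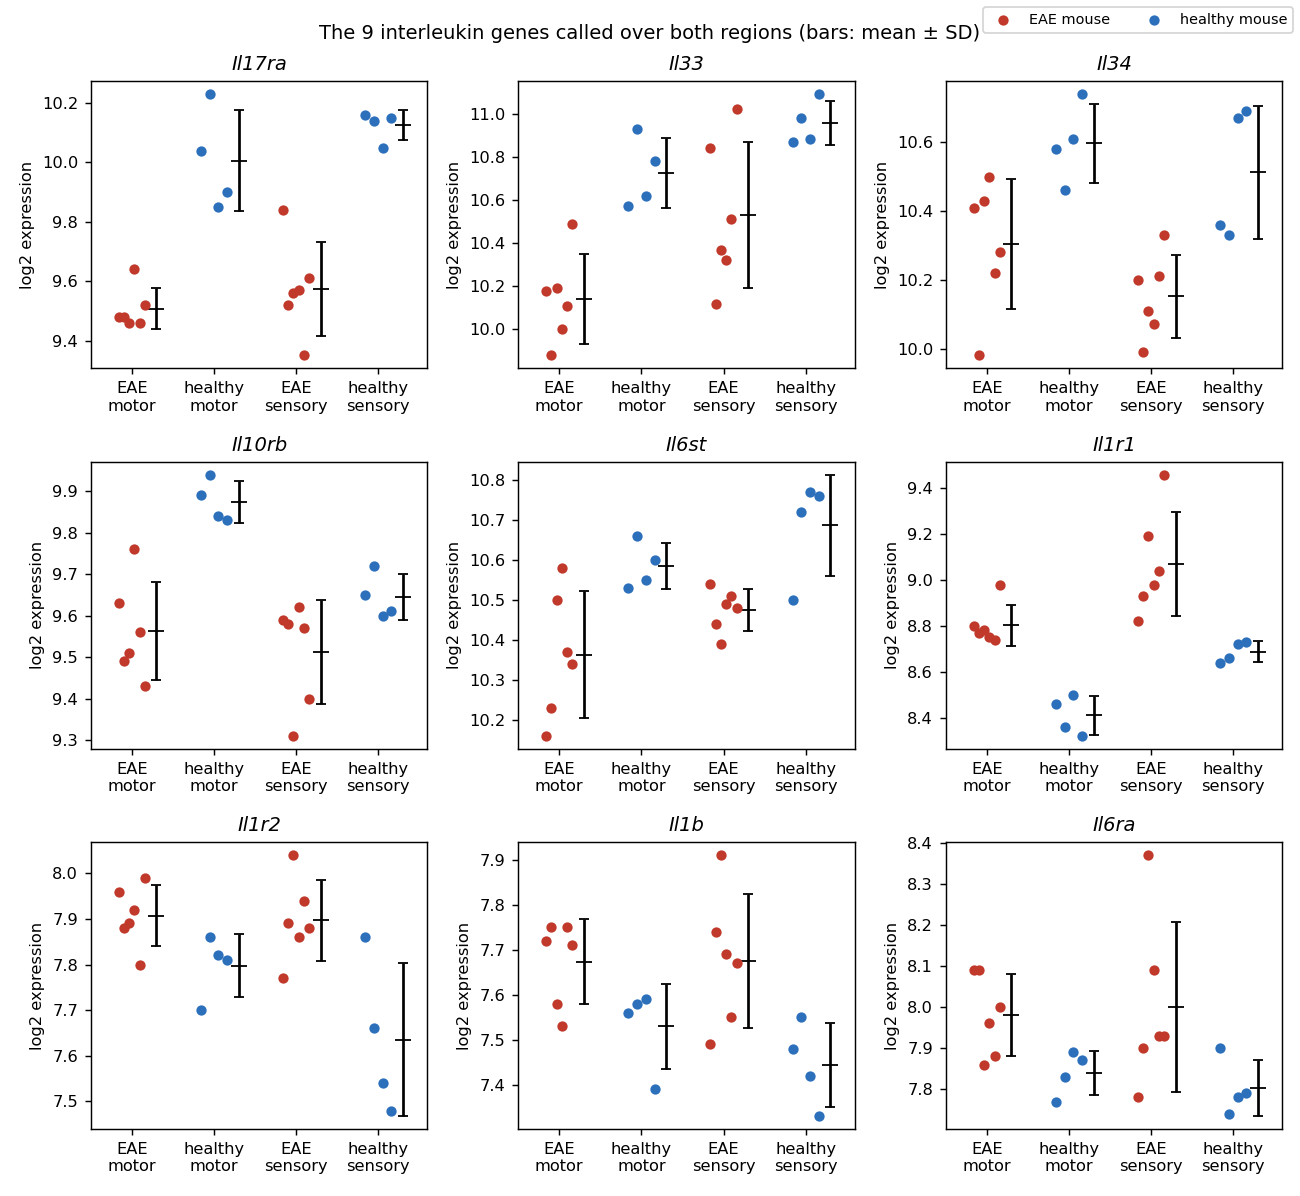
Log2 expression (vertical axes, which differ between panels and do not start at 0) of the 9 interleukin genes called over both regions. Each point is 1 array, EAE in red and healthy in blue, for motor and then sensory cortex, and the black mark and bar give the mean ± SD (n = 6 EAE and 4 healthy mice). Il17ra shows no overlap of EAE and healthy mice in either region, with EAE below, and Il1r1 shows none, with EAE above.

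The clearest fall was that of Il17ra, the receptor chain through which IL-17A and its relatives signal. In motor cortex its lowest, median and highest values in EAE mice were 9.46, 9.48 and 9.64, against 10.04, 10.23, 9.85 and 9.90 in healthy mice. In sensory cortex they were 9.35, 9.56 and 9.84 in EAE mice, against 10.16, 10.14, 10.05 and 10.15 in healthy mice. Every EAE array lay below every healthy array of its region. The change was -0.50 ± 0.07 in motor cortex (SE, log2, limma adjusted p = 0.00566) and -0.55 ± 0.08 in sensory cortex (adjusted p = 0.0133), or -0.53 ± 0.08 in sensory cortex without EAE mouse 3 (adjusted p = 0.0138). The dimmer probe set of Il17ra gave -0.56 in both regions. Within cohort 1 and cohort 2 the motor change was -0.66 and -0.34, and the sensory change was -0.51 and -0.59. The motor call held whichever mouse was left out, whereas the sensory call was lost without healthy mouse 3 or 4 (highest adjusted p 0.0713).

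With all mice, the ligands and partner chains of Il17ra were not called. Il17a, the cytokine of Th17 cells, averaged 7.91 ± 0.11 in motor cortex of EAE mice and 7.88 ± 0.09 in healthy mice (SD, n = 6 and 4), a difference of 0.03 with a 95% interval of -0.12 to 0.17. In sensory cortex it averaged 7.88 ± 0.12 in EAE mice and 7.80 ± 0.21 in healthy mice, with an interval of -0.13 to 0.29. Neither interval excludes a small change in signal, and both exclude a change in signal as large as that of Il17ra. Il17a is among the dim genes, so background may hide a larger change of its RNA. Il17d, an IL-17 relative, stood at -0.28 ± 0.11 in motor cortex and -0.42 ± 0.20 in sensory cortex (adjusted p = 0.214 and 0.301), and the sensory value was -0.25 without EAE mouse 3. Over both regions Il17d stood at -0.35 ± 0.11 (adjusted p = 0.0748). It was called lower there without EAE mouse 3, at -0.26 (adjusted p = 0.0427), and with the mean of its probe sets, at -0.25 (adjusted p = 0.0277). Il17rb, which pairs with Il17ra to bind IL-25, stood at 0.15 ± 0.12 and 0.35 ± 0.15 (adjusted p = 0.578 and 0.255), with a sensory value of 0.39 without EAE mouse 3. Its highest sensory value was 8.98, in EAE mouse 2, against a median of 8.27 in the EAE group.

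Genes listed for IL-17 signalling are given apart: of 8 measured, 2 rose in motor cortex, 2 in sensory cortex and 3 over both regions, and 0 fell. Of all genes, 0.517%, 0.901% and 2.23% rose in these comparisons. The listed genes not called over both regions ran from -0.03 for Tnfaip3 to 0.21 for Traf3ip3, with Cebpb at 0.00. Lcn2, the iron carrier lipocalin 2, rose by 2.67 ± 0.35 in motor and 3.48 ± 0.58 in sensory cortex. Cebpd, a transcription factor of acute inflammation, rose by 0.79 ± 0.14 in motor cortex, and Nfkbiz, a nuclear co-regulator of NF-kB, rose by 0.42 ± 0.09 in sensory cortex. These 3 genes also respond to IL-1, IL-6 and glucocorticoids, and the listing does not show which signal they followed. Il17ra fell in the same mice in which these 3 listed genes rose.

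In the IL-1 family Il1r1, Il1r2 and Il1b rose and Il33 fell. Il1r1 had lowest, median and highest values of 8.74, 8.77 and 8.98 in motor cortex of EAE mice, against 8.46, 8.36, 8.50 and 8.32 in healthy mice. In sensory cortex they were 8.82, 9.01 and 9.46 in EAE mice, against 8.64, 8.66, 8.72 and 8.73 in healthy mice. The groups did not overlap in either region. Il1r1 rose by 0.39 ± 0.06 in motor cortex (adjusted p = 0.00926), and stood at 0.38 ± 0.10 in sensory cortex (adjusted p = 0.0803), or 0.34 ± 0.10 without EAE mouse 3 (adjusted p = 0.0927), which did not pass. The change over both regions was 0.39 ± 0.07 (adjusted p = 0.0106), a ratio of 1.31, and within cohorts 1 and 2 it was 0.35 and 0.43. The second, much dimmer Il1r1 probe set gave 0.13 and 0.03. Il1r1 is known from brain endothelium. Of 6 endothelial markers, 4 fell over both regions and 0 rose. Slco1c1, a thyroid hormone transporter, stood at -0.52 ± 0.04 and Pecam1 at 0.04 ± 0.05. The list mean was 9.57 to 9.80 in motor cortex of EAE mice and 9.84 to 10.02 in healthy mice. The part of endothelium in the change of Il1r1 was not tested.

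Il1r2, a decoy that binds IL-1 without signalling, had lowest, median and highest values of 7.77, 7.89 and 8.04 in sensory cortex of EAE mice, against 7.86, 7.66, 7.54 and 7.48 in healthy mice. The ranges overlapped through healthy mouse 1, whose sensory array was of the second processing date. It rose by 0.18 ± 0.04 over both regions (adjusted p = 0.0205). Il1b, the secreted inflammatory cytokine IL-1 beta, rose by 0.19 ± 0.05 over both regions (adjusted p = 0.0359). Its motor values were 7.53, 7.72 and 7.75 in EAE mice, against 7.56, 7.58, 7.59 and 7.39 in healthy mice, so these groups overlapped too. The Il1b call was lost in 9 of 10 fits that left out 1 mouse, with changes of 0.15 to 0.21, and that of Il1r2 was lost without healthy mouse 3 or 4. Of 6 markers of neutrophils and monocytes, which carry Il1r2 and Il1b, 4 rose over both regions, S100a8, S100a9, Ngp and Camp. Mmp8 and Ccr2 stood at 0.24 ± 0.07 and 0.10 ± 0.07 and were not called. The list means were 7.62 to 7.90 in motor cortex of EAE mice and 6.96 to 7.16 in healthy mice. The part of these cells in the result was not tested.

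Il33 had lowest, median and highest values of 9.88, 10.15 and 10.49 in motor cortex of EAE mice, against 10.57, 10.93, 10.62 and 10.78 in healthy mice. In sensory cortex they were 10.12, 10.44 and 11.02 in EAE mice, against 10.87, 10.98, 10.88 and 11.09 in healthy mice. The motor groups were separate and the sensory groups overlapped. Il33 fell by 0.58 ± 0.11 in motor cortex (adjusted p = 0.0182) and stood at -0.43 ± 0.15 in sensory cortex (adjusted p = 0.177), or -0.40 without EAE mouse 3, but the regions' changes differed by -0.15 with an interval of -0.37 to 0.06, so no difference between regions was shown. Over both regions it fell by 0.50 ± 0.12 (adjusted p = 0.0341). The motor call was lost without healthy mouse 2 or 4, and the call over both regions held in 2 of 10 fits that left out 1 mouse (highest adjusted p 0.113) and was lost after quantile normalization (adjusted p = 0.0587). Of 5 measured oligodendrocyte markers, 2 fell over both regions, Mag by 0.45 ± 0.07 and Opalin by 0.58 ± 0.15, while Mbp and Mobp stood at -0.04 ± 0.07 and -0.08 ± 0.10 in motor cortex. Of 6 astrocyte markers, 1 rose over both regions, the gap junction gene Gjb6, by 0.62 ± 0.08. The others were not called and were mixed in sign. Gfap stood at 0.81 ± 0.23 (adjusted p = 0.0534), Aldh1l1 at 0.09, Slc1a2 at -0.03, Slc1a3 at -0.04 and Aqp4 at -0.26 ± 0.10. The part of either cell type in the fall of Il33 was not tested.

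The rest of the IL-1 family did not pass the test for EAE. Il1a, the other inflammatory IL-1, stood at 0.15 ± 0.07 over both regions, and the receptor antagonist Il1rn at 0.14 ± 0.05 (adjusted p = 0.19 and 0.112). Il18, which caspase-1 cuts like IL-1 beta, averaged 10.95 ± 0.08 in motor cortex of EAE mice and 10.99 ± 0.08 in healthy mice, with an interval of -0.16 to 0.08 for the difference. The accessory chain Il1rap stood at 0.22 ± 0.11 over both regions by its brightest probe set, but its 4 other probe sets gave -0.11 to -0.20, so its direction is unsettled. Il1rapl1, a synaptic organiser, stood at 0.00 ± 0.06. Of 15 measured genes listed for IL-1 and IL-18 signalling, 0 were called in motor cortex, in sensory cortex or over both regions. The list mixes genes that act after the receptors with others such as Casp1, which matures IL-1 beta and IL-18.

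Il34 had lowest, median and highest values of 9.99, 10.15 and 10.33 in sensory cortex of EAE mice, against 10.36, 10.33, 10.67 and 10.69 in healthy mice. In motor cortex they were 9.98, 10.34 and 10.50 in EAE mice, against 10.58, 10.46, 10.61 and 10.74 in healthy mice. The sensory groups met at 10.33, and the motor groups overlapped. Il34 fell by 0.36 ± 0.07 in sensory cortex (adjusted p = 0.0326) and by 0.33 ± 0.07 over both regions (adjusted p = 0.0157), and the sensory change was -0.37 ± 0.07 without EAE mouse 3 (adjusted p = 0.0338). The sensory call held in 3 of 10 fits that left out 1 mouse, and within cohorts 1 and 2 the sensory change was -0.25 and -0.48. Its receptor Csf1r stood at -0.19 ± 0.07 in motor cortex and -0.09 ± 0.09 in sensory cortex (adjusted p = 0.209 and 0.617). Of 7 microglial markers, Csf1r included, 5 fell over both regions, led by the purine receptor P2ry12 at -0.98 ± 0.12. Aif1 stood on the other side of 0, at 0.22 ± 0.19, and was not called. The list means were 9.57 to 9.78 in motor cortex of EAE mice and 10.01 to 10.19 in healthy mice. Of 5 markers of excitatory cortical neurons, 0 were called, with a median of 0.07 over both regions. Whether the fall of Il34 and that of the microglial genes are linked was not tested.

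In the IL-6 and IL-12 family the common chain fell and the specific chain rose. Il6st had motor values of 10.16, 10.35 and 10.58 (lowest, median and highest) in EAE mice, against 10.53, 10.66, 10.55 and 10.60 in healthy mice. Its sensory values were 10.39, 10.49 and 10.54 in EAE mice, against 10.50, 10.72, 10.77 and 10.76 in healthy mice. Il6st fell by 0.22 ± 0.05 over both regions (adjusted p = 0.0205), and the call was lost without healthy mouse 2, 3 or 4. Its second probe set gave -0.23 and the other 2 gave -0.05 and -0.13. Il6ra, which binds IL-6 itself, rose by 0.17 ± 0.05 (adjusted p = 0.0485), a call kept in 1 of 10 fits that left out 1 mouse. Its motor values were 7.86, 7.98 and 8.09 in EAE mice, against 7.77, 7.83, 7.89 and 7.87 in healthy mice, and its second probe set gave 0.13.

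Il6 itself averaged 5.09 ± 0.29 in motor cortex of EAE mice and 5.19 ± 0.08 in healthy mice, near the bottom of the array's range. Among 8 measured relatives outside the naming rule, Osmr, the oncostatin M receptor and a partner of gp130, rose over both regions by 0.43 ± 0.10 (adjusted p = 0.0257). Its sensory values were 7.97, 8.51 and 8.72 in EAE mice, against 7.86, 7.90, 7.98 and 7.81 in healthy mice. Of 10 measured JAK and STAT genes and 15 feedback genes of this pathway, 0 were called for EAE in motor cortex, in sensory cortex or over both regions. Socs3, the feedback inhibitor induced by gp130 signalling, stood at 0.35 ± 0.10 in sensory cortex (adjusted p = 0.102) and 0.13 ± 0.08 in motor cortex.

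Il10rb, a receptor chain shared by IL-10, IL-22 and the lambda interferons, had motor values of 9.43, 9.54 and 9.76 in EAE mice, against 9.89, 9.94, 9.84 and 9.83 in healthy mice. In sensory cortex the values were 9.31, 9.58 and 9.62 in EAE mice, against 9.65, 9.72, 9.60 and 9.61 in healthy mice. The motor groups were separate, and the sensory groups overlapped. Il10rb fell by 0.31 ± 0.07 in motor cortex (adjusted p = 0.0361) and stood at -0.13 ± 0.07 in sensory cortex (adjusted p = 0.356), or -0.08 without EAE mouse 3. This motor call was lost in 8 of 10 fits that left out 1 mouse, with changes of -0.36 to -0.28, and the dimmer probe set gave -0.02. Il10ra, the specific IL-10 chain, stood at 0.20 ± 0.06 in sensory cortex (adjusted p = 0.113), or 0.17 without EAE mouse 3, and Il10 averaged 5.78 ± 0.13 in motor cortex of EAE mice and 5.78 ± 0.17 in healthy mice.

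Among the cytokines that direct T cells, Il12b, the subunit shared by IL-12 and IL-23, stood at 0.10 ± 0.05 over both regions, Il23a at 0.10 ± 0.05 and Il27ra, the IL-27 receptor, at 0.06 ± 0.05, and none of these 3 was called for EAE. A group of 15 genes held the common gamma chain family, which includes IL-2, IL-4, IL-7, IL-15 and IL-21, together with IL-13 and its receptors. Of these 15, 0 were called for EAE, with a median of 0.09 in motor and 0.06 in sensory cortex. Il15 stood at -0.18 ± 0.06 over both regions (adjusted p = 0.0977), Il15ra at -0.02 ± 0.10 and Il7r at 0.16 ± 0.09. Il4ra stood at 0.30 ± 0.14 in motor cortex by its brightest probe set (adjusted p = 0.328), but its other probe sets gave 0.04 and 0.06. Il13ra1 stood at -0.06 ± 0.08 in motor cortex. Il16, a CD4 ligand, stood at 0.17 ± 0.05 over both regions by its brightest probe set (adjusted p = 0.0798). Its other probe sets gave -0.04, -0.11 and -0.04, so its direction is unsettled. Of 8 measured T-cell markers 2 rose over both regions, Cd3g by 0.36 ± 0.09 and Cd2 by 0.23 ± 0.06. The others were not called and ran from -0.02 for Cd28 to 0.16 for Cd3d, with Cd8a at 0.00, Cd3e at 0.01 and Cd4 at 0.07. The highest Cd3g value, 6.59, was that of the sensory array of EAE mouse 3, against 5.43 to 6.06 in the other EAE sensory arrays. Of 5 B-cell and plasma-cell markers 0 were called.

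Il18bp, the secreted inhibitor of IL-18, varied among EAE mice more than it differed between groups. The motor values of Il18bp in EAE mice 1 to 6 were 8.97, 9.25, 8.87, 9.19, 9.56 and 8.87, against 8.97, 8.96, 9.01 and 8.97 in healthy mice. In sensory cortex they were 9.00, 9.62, 8.91, 9.22, 9.49 and 8.87 in EAE mice, against 8.88, 8.88, 8.93 and 8.94 in healthy mice. EAE mice 2, 4 and 5 were thus above every healthy mouse in both regions, and mice 3 and 6 were not. The SD was 0.27 and 0.31 among EAE mice, against 0.02 and 0.03 among healthy mice, for motor and sensory cortex. Il12rb1, a receptor chain of IL-12 and IL-23, averaged 7.94 ± 0.22 in motor cortex of EAE mice and 7.62 ± 0.17 in healthy mice, with a difference of 0.36 ± 0.11 over both regions (adjusted p = 0.077). For Il18bp that difference was 0.21 ± 0.12 (adjusted p = 0.321).

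**Figure D2:**
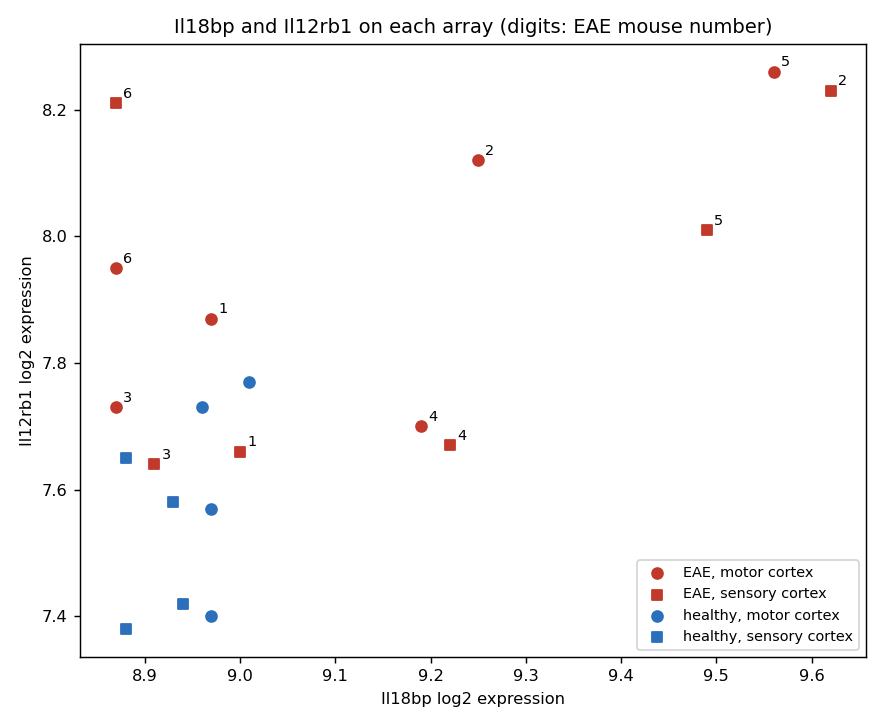
Il18bp (horizontal) against Il12rb1 (vertical), both log2 expression, on each of the 20 arrays. Circles are motor and squares sensory cortex, EAE in red with the mouse number and healthy in blue. Healthy arrays keep to 8.88 to 9.01 for Il18bp, and both arrays of EAE mice 2, 4 and 5 lie to their right.

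Most of the dim members stood slightly above 0. Of the 72 genes, 52 were positive in motor cortex and 58 in sensory cortex, 72.2% and 80.6%, against 46.9% and 50.3% of all genes, and the median was 0.09 and 0.08. Brightness moved with this: among genes below the array's median gene, 79.4% and 85.7% of the 63 dim members were positive, against 61.9% and 65.4% of all such genes. Without EAE mouse 3, 75% of members and 48.2% of all genes were positive in sensory cortex. After quantile normalization between arrays the members' shares were 72.2% and 77.8%, against 53.4% and 55.9% of all genes. The 5 genes that fell over both regions were all among the 9 members brighter than the median gene. The 4 that rose were among the 63 dimmer ones. Bright genes in general also fell more often than they rose: 711 against 171 of all 9097 above the median gene. Of the 9097 dimmer genes, 315 fell and 234 rose. Ligands and receptors had medians of 0.07 and 0.08 in motor cortex and 0.08 and 0.09 in sensory cortex. EAE and healthy arrays did not overlap for 5 members in motor cortex, 6.94% against 5.68% of all genes, and for 3 in sensory cortex, 4.17% against 6.49%. The 4 named above and Il20ra, a receptor of the IL-20 subfamily, made up the 5, and Il20ra, named after its values were seen, stood at 0.20 ± 0.08 in motor cortex (adjusted p = 0.203).

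**Figure D3:**
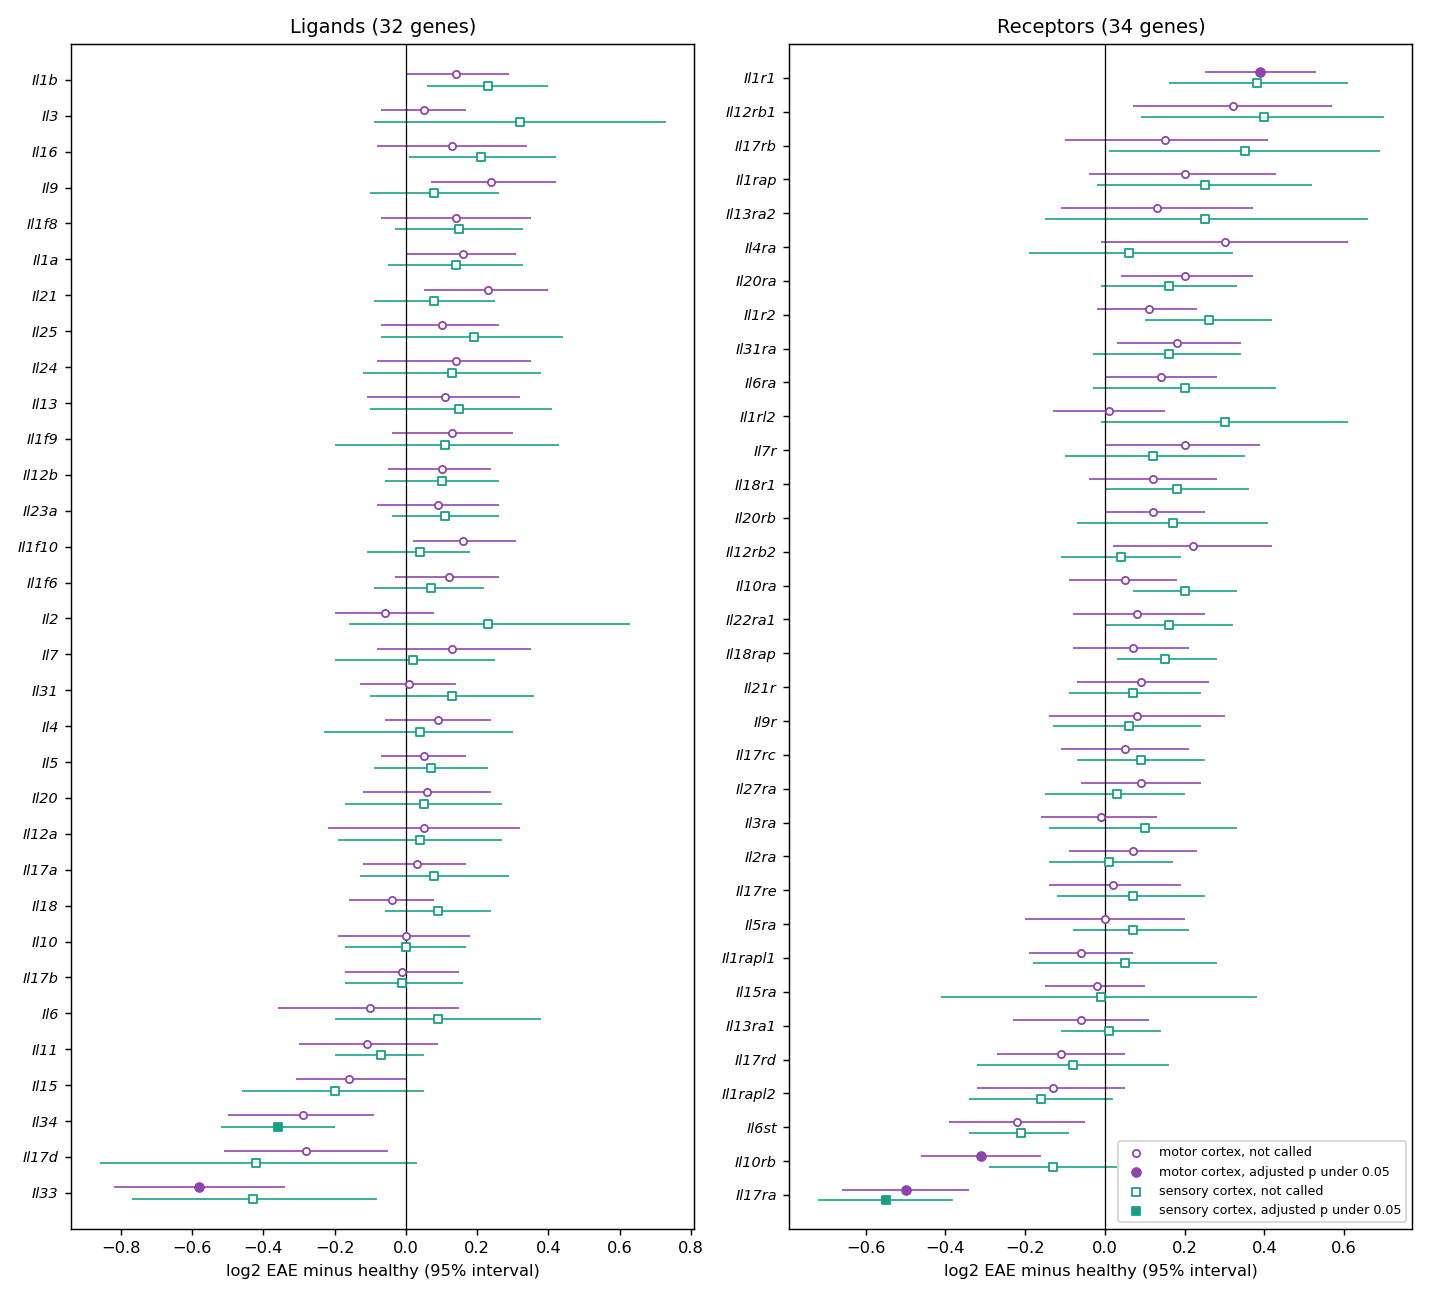
Change between EAE and healthy mice (log2 EAE minus healthy, horizontal axis) for each of the 32 ligands (left) and 34 receptors (right), ordered by the change over both regions, with 95% intervals. Purple circles are motor and green squares sensory cortex (6 EAE and 4 healthy mice each), filled where the limma adjusted p was under 0.05. Most points lie a little right of 0, and Il33, Il34, Il17d, Il10rb, Il6st and Il17ra lie at the lower left.

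The change with EAE was also compared between regions within mice. Of the 72 genes, 0 were called, as were 0 of all genes, 0%. At an unadjusted p under 0.05 there were 2 members, against 422 of all genes, 2.32%. The 2 were Il10rb at -0.18 ± 0.07 and Il12rb2, the IL-12 receptor's signalling chain, at 0.18 ± 0.07, both motor minus sensory. For Il1r1 the difference was 0.01 with an interval of -0.19 to 0.20, for Il17ra 0.05 with an interval of -0.17 to 0.27, and for Il34 0.07 with an interval of -0.16 to 0.30. Changes confined to 1 region were therefore not shown for any member.

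The last comparison set motor against sensory cortex of the same mice, EAE and healthy together. Of the 72 genes 5 were higher and 4 lower in motor cortex, 12.5% against 13.2% of all genes (7.67% higher and 5.56% lower), and at an unadjusted p under 0.05 there were 15, 20.8% against 25.2%, so interleukin genes were called about as often as other genes. The lower ones were Il12a, Il33, Il1r1 and Il4ra, and the higher ones Il1rapl2, Il1rap, Il1a, Il20 and Il1bos. Il12a, the p35 subunit of IL-12 and IL-35, averaged 7.98 ± 0.21 in motor and 8.53 ± 0.19 in sensory cortex (SD, n = 10 mice). Motor minus sensory was -0.48, -0.45, -0.58, -0.56, -1.02 and -0.21 in EAE mice and -0.56, -0.22, -0.86 and -0.59 in healthy mice, so it was lower in motor cortex in 10 of 10. The difference was -0.55 ± 0.07 (adjusted p = 0.00011), with means of -0.55 in EAE mice and -0.56 in healthy mice.

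Il33 was lower in motor cortex in 10 of 10 mice, by -0.65 to -0.06, with means of 10.38 ± 0.35 in motor and 10.70 ± 0.34 in sensory cortex and a difference of -0.33 ± 0.05 (adjusted p = 0.000606). Il1r1 was lower in 10 of 10 mice, by -0.48 to -0.02, with a difference of -0.27 ± 0.04 (adjusted p = 0.000665). Il1r1 was thus higher in EAE mice and in sensory cortex, whereas Il33 was lower in EAE mice and higher in sensory cortex. Of 6 astrocyte markers, 3 were also lower in motor cortex, with Gfap at -0.60 ± 0.07, Aldh1l1 at -0.18 ± 0.04 and Gjb6 at -0.12 ± 0.03. Their part in the difference of Il33 was not tested. Of 5 oligodendrocyte markers 0 were called, with a median of -0.12.

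Il4ra, the receptor of IL-4 and IL-13, was lower in motor cortex in 9 of 10 mice, at -0.32 ± 0.06 (adjusted p = 0.00306), but its 2 other probe sets gave 0.06 and -0.02, so the difference rests on 1 probe set, and with the mean of its probe sets it was -0.09 (adjusted p = 0.192). Il1rapl2, a relative of the synaptic organiser Il1rapl1, was higher in 10 of 10 mice, by 0.14 to 0.52, at 0.32 ± 0.04 (adjusted p = 0.000261), and its 2 other probe sets gave 0.17 and 0.05. Il1rap was higher in 9 of 10 mice, at 0.25 ± 0.04 (adjusted p = 0.0014), with 0.24 in the second probe set and 0.00 to 0.06 in the other 3. The remaining 3 were dimmer than the median gene, as were Il12a, Il1r1, Il4ra and Il1rapl2. Il1a stood 0.17 ± 0.04 higher in motor cortex, Il1bos, transcribed antisense to Il1b, 0.16 ± 0.04 higher, and Il20, a skin-type cytokine of the IL-10 family, 0.16 ± 0.05 higher (adjusted p = 0.00975, 0.0248 and 0.0465). Il20 was called in 4 of 10 fits that left out 1 mouse, and not in the fit without EAE mouse 3.

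**Figure D4:**
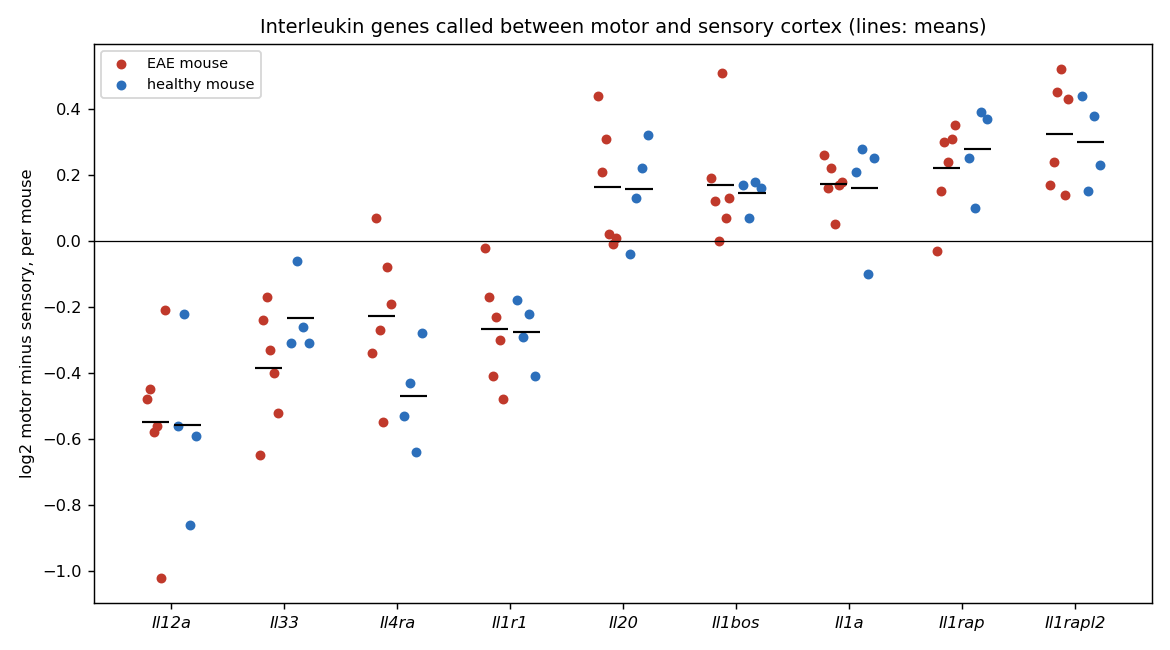
Motor minus sensory log2 expression (vertical axis) in each mouse for the 9 interleukin genes called between regions. Red points are the 6 EAE mice and blue points the 4 healthy mice, and short lines are group means. Il12a, Il33 and Il1r1 lie below 0 in all 10 mice and Il1rapl2 above 0 in all 10.

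Some genes listed for interleukin signalling were also called between regions. Among all genes 13.2% were called, 7.67% higher and 5.56% lower in motor cortex. Of 10 JAK and STAT genes 2 were lower in motor cortex, Stat4, which carries the IL-12 signal, by 0.29 ± 0.04, and Stat6, which carries the IL-4 signal, by 0.26 ± 0.05. Of 15 feedback genes 3 were lower, Socs2, Pias2 and Pias3, at -0.16, -0.14 and -0.11. Casp1, which matures IL-1 beta and IL-18, was the 1 of 15 IL-1 and IL-18 signalling genes that differed, at -0.40 ± 0.04 (adjusted p = 2.5e-05). The gp130 partner Lifr was lower at -0.22 ± 0.04, and the NF-kB brake Tnfaip3 was higher at 0.23 ± 0.04. Il12a and Stat4 were thus both lower in motor cortex, whereas Il12rb1, Il12b and Il13ra1 stood at 0.06 ± 0.05, 0.04 ± 0.04 and -0.06 ± 0.05 and were not called.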

How the data were processed

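The authors deposited log2 expression per probe set. Per the submitters' processing notes, Partek and RMA were used; their versions are not given in the sources used here. The RMA method subtracts background, puts arrays on 1 distribution and summarises probes, so small differences at low signal shrink. The platform annotation gave 34958 of 45101 probe sets 1 symbol, and each of 18194 genes was taken from its brightest such probe set. A further gene is not reported here.

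All genes were fitted with lmFit and eBayes of limma 3.58.1 (R 4.3.3), two-sided, with cohort as a covariate. A call is a Benjamini-Hochberg adjusted p under 0.05, and each printed adjusted p is limma's. Regions were fitted separately, for each mouse's mean and for each mouse's motor minus sensory value. The fit of motor against sensory cortex had the mouse as a block, since the labels' animal numbers show that the arrays share an animal. Errors with a change are moderated SEs, intervals are 95%, and errors with a mean are SDs. An EAE and a healthy mouse with the same number are different animals, with deviations correlating at 0.0156 to 0.292 in motor and -0.25 to 0.397 in sensory cortex, so they were not paired. No 2 arrays were identical, and precision is limited by how few arrays there are. The fits were tested on simulated data.

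The members, the gene lists and the rule for naming genes were chosen with earlier results of these data known. Named members are those called in any comparison, the 6 with the largest change in each region, the 3 with the smallest p where 0 were called, and a fixed set of well-known interleukins. Of the pathway and marker lists, called genes and up to 3 with the smallest p are named. Other listed genes, such as Csf1r, Aif1, Pecam1, Mbp and Mobp, were named after their values were seen. Alternatives were quantile normalization, other gene summaries, filters, variance models and designs, single cohorts, and leaving out mice or the arrays of the second chip processing date.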

Additional observations from a re-analysis of the deposited data

Results flagged for a closer look

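For the 36 interleukin genes singled out by the naming rule, in 14 of 144 sets of arrays (36 genes in 4 groups), 9.72%, the highest or lowest array lay far from the rest of its group by Dixon's criterion, where chance alone flags about 1 in 20, or 5%. Of these, 5 were the sensory array of EAE mouse 3, the array that stood apart over the 72 genes. Over all 72 genes there were 26 such cases in 288 sets, 9.03%, of which 12 were that array. It was high for Il12b at 7.04 and Il1rn at 8.59, and low for Il15 at 5.92, Il15ra at 7.58 and Il17d at 7.02. Among other EAE arrays, mouse 1 stood out in motor cortex for Il17a at 8.12, mouse 4 for Il17ra at 9.64 and mouse 6 for Il1r1 at 8.98, and mouse 2 in sensory cortex for Il17rb at 8.98. Among healthy arrays, mouse 1 stood out in motor cortex for Il18 at 10.87, mouse 4 in motor cortex for Il1b at 7.39 and Il23a at 6.22, mouse 3 in sensory cortex for Il15ra at 8.64 and mouse 4 in sensory cortex for Il1rapl2 at 8.32. The motor array of healthy mouse 4 was of the second processing date. The array of EAE mouse 4 that was high for Il17ra remained below all healthy motor arrays. That of EAE mouse 6 for Il1r1 lay on the side away from the healthy arrays.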

How the results depend on the processing

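All 24 calls of single interleukin genes kept their direction under every alternative that was run, and 11 were kept whichever mouse was left out. Counts depended more on the setting, and the cause was not tested except where fewer genes or mice entered the fit. In motor cortex (410 genes called, 4 interleukin genes, 1 higher and 3 lower), leaving out 1 mouse gave 145 to 470 genes and 2 to 4 interleukin genes, with 1 to 1 higher and 1 to 3 lower. In sensory cortex (438, 2, 0 and 2) it gave 19 to 1009 genes and 0 to 7 interleukin genes, with 0 to 4 higher and 0 to 3 lower. Over both regions (1431, 9, 4 and 5) it gave 472 to 1813 genes and 2 to 9 interleukin genes, with 1 to 4 higher and 1 to 5 lower. Between regions (2408, 9, 5 and 4) it gave 1925 to 2912 genes and 7 to 9 interleukin genes, with 3 to 5 higher and 4 to 4 lower. The difference of the EAE effect between regions stayed at 0 genes when any mouse was left out.

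Single cohorts hold 3 EAE and 2 healthy mice. Cohorts 1 and 2 gave 9 and 16 genes in motor cortex with 0 interleukin genes each, 0 and 141 in sensory cortex with 0 each, 0 and 574 over both regions with 0 and 3 (1 higher and 2 lower in cohort 2), and 523 and 1003 between regions, where cohort 1 called 2 (1 and 1) and cohort 2 called 6 (2 and 4). Without the arrays of the second processing date the counts were 194, 118, 6 and 1531 genes. These held 2 interleukin genes in motor cortex (1 higher, 1 lower), 1 in sensory cortex (lower) and 6 between regions (2 higher, 4 lower). Over both regions they held 0, where the 2 mice concerned leave 2 healthy ones. Il33 and Il10rb were then not called in motor cortex (limma adjusted p = 0.066 and 0.0834), nor Il34 in sensory cortex (adjusted p = 0.0665). The replicate block, which pairs EAE and healthy mice by number in place of cohort, gave 5 genes and 0 interleukin genes in sensory cortex, and 919 genes and 5 interleukin genes (2 higher, 3 lower) over both regions. In motor cortex it gave 389 genes and 3 interleukin genes. Without the mouse block, 6 interleukin genes were called between regions (2 higher, 4 lower), of 1968 genes.

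Quantile normalization called 5 interleukin genes over both regions (2 higher, 3 lower). It changed the split of all genes (higher and lower) to 120 and 227 in motor cortex, 193 and 182 in sensory cortex and 450 and 603 over both regions, against 94 and 316, 164 and 274, and 405 and 1026. With genes below the median left out, sensory cortex gave 795 genes, and interleukin genes numbered 3 in motor cortex (0 higher, 3 lower), 5 over both regions (0 higher, 5 lower) and 3 between regions (2 higher, 1 lower). An intensity trend with robust estimation gave 800 genes in sensory cortex with 3 interleukin genes (1 higher, 2 lower), and 7 over both regions (2 higher, 5 lower). With no cohort term, 1 interleukin gene was called in sensory cortex, lower. Signal limits what can be seen: 63 of the 72 genes lay below the median gene, where background can compress changes.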
